A study of Drosophila melanogaster with 2 samples.

Results

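The genes for the proteins of the mitochondrial ribosome were examined for binding of Huckebein in the Drosophila melanogaster embryo. Members were taken by name, as the protein-coding genes whose symbol begins with mRpL (large subunit) or mRpS (small subunit). There were 73 members of 13945 protein-coding genes on the chromosome arms, 47 counted for the large and 26 for the small subunit. The subunit was taken from the symbol alone and was not checked otherwise. The data were peak lists from chromatin immunoprecipitation followed by sequencing (ChIP-seq) of transgenic flies that make Huckebein fused to enhanced green fluorescent protein (hkb-eGFP, strain hkb-GFP, an insertion aimed at hkb). The precipitating antibody was directed at the fluorescent tag, although the antibody field of the labels reads hkb. All material was whole embryos aged 0 to 24 h, in 1 group with 2 biological replicates and with no second genotype, treatment or time. Every embryo carried the fusion, and no source used here gives the regulatory sequence that drives it. In whole embryos of mixed age, strong binding in few cells and weak binding in many cannot be told apart.

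Mitochondrial ribosomes translate the small set of messenger RNAs that the mitochondrial genome encodes, all of them for membrane subunits of the respiratory chain and ATP synthase. Their RNAs are made inside the organelle, but every protein of the particle is encoded in the nucleus, made in the cytosol and imported, so the nuclear genes have to be expressed together. Some of these proteins have bacterial relatives and build the decoding and peptidyl transferase centres, and others occur only in mitochondria. Huckebein is a zinc finger protein of the Sp/KLF family, known as a repressor that sets the boundaries of the embryo's terminal regions.

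A gene was counted as having a peak when the summit of a thresholded peak, the base of highest signal that the authors recorded, lay within 500 bp of an annotated transcript start of that gene. In the list that combines both replicates, 23 of 73 members had a peak, which is 31.5% (exact 95% binomial interval 21.1 to 43.4%), against 24.3% of all protein-coding genes. Replicate 1 alone gave 16 members (21.9%, against 18.7% of all genes) and replicate 2 alone gave 17 (23.3%, against 16.4%). A more conservative list of the authors gave 25 members (34.2%, against 23.9%). In the combined list and both replicate lists together there were 13 members (17.8%, against 13.2%). The interval around the members' share in the combined list includes the background. Fewer annotated starts give fewer places for a summit, and 91.8% of members had 1 start, against 73.5% of all genes. Among genes with 1 start, 21 of 67 members had a peak (31.3%, interval 20.6 to 43.8%), against 18.0%, which lies below the interval. Of these 67 members 71.6% had a divergent neighbour, as defined below, against 26.0% of all genes with 1 start. In the combined list the subunits had like shares, with 15 of 47 large-subunit genes (31.9%) and 8 of 26 small-subunit genes (30.8%). Elsewhere the large-subunit share was the lower. It was 17.0% against 30.8% in replicate 1, 19.1% against 30.8% in replicate 2 and 29.8% against 42.3% in the conservative list. Of those with a peak in the combined list, 7 of the 8 small-subunit genes (87.5%) and 6 of the 15 large-subunit genes (40.0%) were in all 3 lists. Of all members with a peak 56.5% were, and of all genes with a peak 54.5%. No test was made of any share, because there was a single group and the members were chosen with results of these data known, and intervals here cover counting error only.

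The combined list held 7220 peaks, the conservative list 6989, that of replicate 1 5260 and that of replicate 2 4347. Numbers of reads were not used here, and library depth is therefore unknown. The authors' signal value has no stated unit and ranks peaks within 1 list only. Of the peaks in the combined list 78.9% are exactly 384 bp wide, as are 14 of the 23 at members, each of these with its summit at the centre, so width says little about the extent of a site.

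Of the small-subunit genes, mRpS23 had the highest signal. This gene for a protein of the mitochondrial small subunit without a known bacterial relative had a signal of 1733 in the combined list (rank 8), while replicate 1 gave 924 and replicate 2 gave 781. The summit lay 394 bp before its start and 98 bp before that of the oppositely transcribed CenG1A, which encodes an Arf GTPase-activating protein. The peak of mRpS10, whose bacterial counterpart lies in the head of the small subunit, had a signal of 1452 (rank 18), with 836 in replicate 1 and 616 in replicate 2. Its summit was almost midway between mRpS10 and Art3, an arginine methyltransferase gene, 129 bp and 128 bp from their starts. Both peaks are among the strongest in the genome in this experiment, and both lie between divergent genes. Further down the list, mRpS2 had a signal of 381 in the combined list, against 201 for replicate 1 and 173 for replicate 2. For mRpS7, which belongs to the head of the subunit, the values were 214, 116 and 91.3 in the same order. For mRpS6, a protein of the platform, they were 195, 108 and 88.1. The remaining small-subunit genes in all 3 lists were weaker, mRpS24 with 147, 84.9 and 66.3 and mRpS18B with 113, 58.4 and 57.7. The gene for mRpS11, another platform protein, had a peak of 111 in the combined list and of 64.5 in replicate 1, while in replicate 2 its candidate of 40.4 stayed below the threshold. Replicate 1 gave the higher value at every one of these genes, but the scale of each list is its own.

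The sequence under the strongest summits is shown because it was poor in G and C. Each window has 101 bases, 50 either side of the summit, on the strand of the mitochondrial ribosomal protein gene from 5′ to 3′, read from the RefSeq Release 6 genome, with the longest unbroken run of A and T in capitals (the first of equally long runs at mRpS10 and mRpS7). The windows are mRpS23 at chr2L:13835416-13835516 (minus strand), mRpS10 at chr3R:15229486-15229586 (plus strand), mRpS2 at chr2L:4850535-4850635 (minus strand), mRpS7 at chr2L:10386460-10386560 (plus strand) and mRpS6 at chr3L:4364416-4364516 (plus strand).
mRpS23: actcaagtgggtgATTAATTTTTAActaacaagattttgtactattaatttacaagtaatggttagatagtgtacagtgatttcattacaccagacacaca
mRpS10: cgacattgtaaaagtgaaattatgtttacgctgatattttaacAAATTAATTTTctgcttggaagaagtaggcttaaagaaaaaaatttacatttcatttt
mRpS2: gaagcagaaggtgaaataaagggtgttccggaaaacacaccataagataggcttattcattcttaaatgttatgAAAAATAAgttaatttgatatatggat
mRpS7: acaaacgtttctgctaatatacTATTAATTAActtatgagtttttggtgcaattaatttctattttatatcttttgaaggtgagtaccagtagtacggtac
mRpS6: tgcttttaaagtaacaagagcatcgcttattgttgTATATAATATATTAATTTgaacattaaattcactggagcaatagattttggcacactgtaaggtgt
The GC content was 29.7% at mRpS23, 24.8% at mRpS10, 30.7% at mRpS2, 28.7% at mRpS7 and 29.7% at mRpS6. None of these windows held the core published for Huckebein, CACGCCC, on either strand.

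Among the large-subunit genes, 3 of the 7 whose products lie around the exit of the peptide tunnel had a peak: mRpL23, mRpL24 and mRpL32 (42.9%, interval 9.90 to 81.6%, which includes the 24.3% of all genes). Each was also in both replicate lists. The protein of mRpL23 is part of the ring around the tunnel exit, and its peak reached 1024 in the combined list (rank 58), against 609.7 for replicate 1 and 405 for replicate 2. It was the only member peak of at least 200 with its summit inside the member, 68 bp after the nearest of its annotated starts and 118 bp before the start of the divergent CG9004. At mRpL24, whose bacterial counterpart starts the assembly of the large subunit, the signal was 533, 304 and 219.8. At mRpL32, which in yeast and mouse is cut by the inner-membrane m-AAA protease before it joins the ribosome, it was 196, 99.8 and 90.8. Outside the tunnel exit, mRpL20, whose bacterial counterpart is needed early in assembly, had a signal of 491, 304 and 197. These 4 peaks were therefore in the same order in both replicates, apart from mRpL24 and mRpL20 in replicate 1. There both values round to 304, at ranks 238 and 239.

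The windows of 3 of these summits, in the same format with the longest run of A and T in capitals, are mRpL24 at chr2L:4945447-4945547 (minus strand), mRpL20 at chr3L:13018082-13018182 (minus strand) and mRpL32 at chr3R:31252714-31252814 (plus strand).
mRpL24: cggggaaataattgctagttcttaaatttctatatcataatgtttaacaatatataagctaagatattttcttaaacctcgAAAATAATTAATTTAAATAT
mRpL20: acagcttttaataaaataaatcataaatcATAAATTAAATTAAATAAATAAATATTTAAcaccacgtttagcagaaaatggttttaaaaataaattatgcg
mRpL32: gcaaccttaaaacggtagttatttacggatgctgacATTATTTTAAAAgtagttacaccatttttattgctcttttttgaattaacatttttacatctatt
They had GC contents of 20.8%, 17.8% and 26.7%, and the run at mRpL20 covers 30 bases. Over all 23 member peaks the median GC content of the summit window was 29.7% (range 16.8 to 60.4%), against 37.6% over the 3150 summits at promoters of the combined list. From 250 bp before to 50 bp after the start, the members with a peak were low in GC as well. Their median there was 32.9%, against 37.9% for all genes with a peak. That stretch takes in most of the summit windows, and GC content outside them was not measured. Stronger promoter summits had the lower GC content at members and over all genes: at a signal of at least 200 the median was 23.3% for 8 members and 28.7% for all 663 such promoter summits, and below it 30.7% for 15 members and 40.6% for all 2487. The longest run of A and T had a median of 12 bases at members and 9 bases at all promoter summits.

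**Figure D1:**
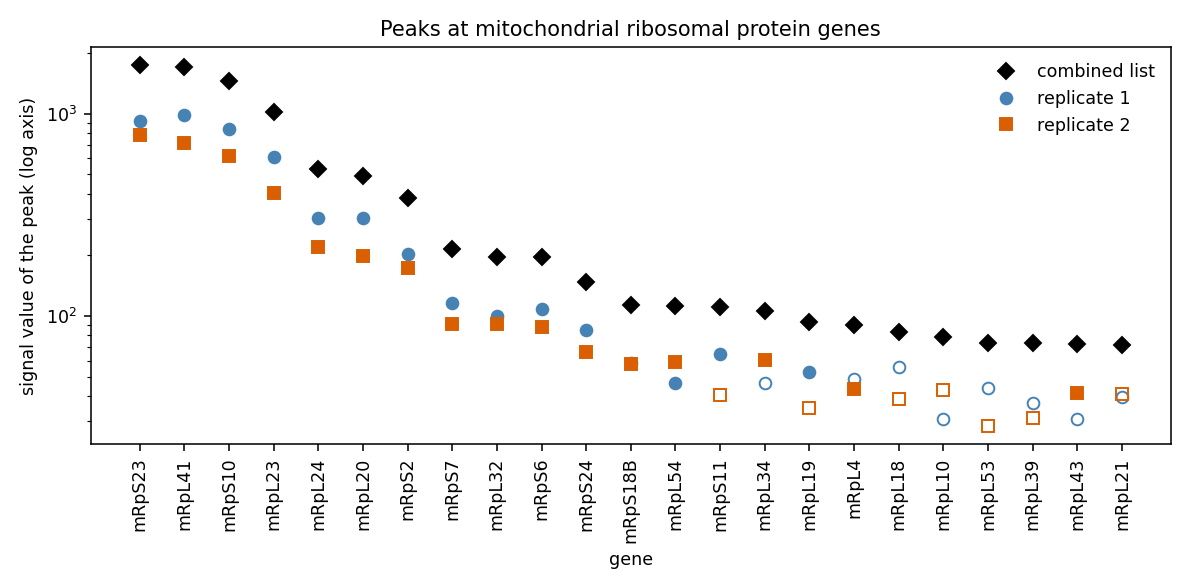
Signal value of the peak (log axis) at the 23 members with a peak in the combined list, ordered by it. Black diamonds are the combined list, blue circles replicate 1 and orange squares replicate 2; open symbols are the highest candidate of a replicate where its own thresholded list has no peak. The 4 genes at the left exceed 1000 in the combined list, and the open symbols all belong to genes at or below 111.

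The peak of mRpL41 was the second strongest at a member and the strongest with no divergent neighbour. Its product is a large-subunit protein found in mitochondria but not in bacteria. The signal was 1701 in the combined list (rank 9), against 984 for replicate 1 and 717 for replicate 2, with the summit 136 bp before the start, at position 15217753 of chromosome arm 2R. The last large-subunit gene in all 3 lists was mRpL54, with 112, 46.3 and 59.3, and among the 13 members in all lists it alone had the higher value in replicate 2. Together 4 members were among the 100 strongest peaks of the combined list. A signal of at least 200 was reached at 8 of the 23 members with a peak (34.8%), against 26.5% of all genes with a peak. The median was nevertheless 113 for members (range 71.7 to 1733) and 121 for all genes with a peak, so the members combined a few very strong peaks with many near the threshold.

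The weaker member peaks were mostly of the large subunit and mostly missed by a replicate. In the combined list and 1 replicate were mRpL34 (106 in the combined list and 60.7 in replicate 2), mRpL19 (92.8 and 52.9 in replicate 1), mRpL4 (89.6 and 43.2 in replicate 2), mRpL43 (72.3 and 41.3 in replicate 2) and mRpS11. In the combined list alone were mRpL18 (83.5), mRpL10 (78.4), mRpL53 (73.4), mRpL39 (73.1) and mRpL21 (71.7). Others had a peak in a replicate only. Within 500 bp, mRpL33 had a peak of 95.9 in replicate 1 only, at position -493 bp from its start. The highest candidate of replicate 2 within 500 bp was another site, at 80 bp, with 6.20. With a limit of 1000 bp, or with any base of the peak in place of the summit, mRpL33 had a peak in the combined list too. Its absence from that list therefore depends on the limit. The gene mRpS21 had a peak of 41.7 in replicate 2 only, and it entered the conservative list, as did mRpL9, mRpS16 and mRpS31, while mRpL10 and mRpL43 left it.

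A candidate of the authors' ranked list, thresholded or not, lay within 500 bp of a start at 71 of 73 members (97.3%), against 71.0% of all genes. The exceptions were mRpL40, of the central protuberance, and mRpS5, of the small-subunit body. At the 48 members with a candidate but no peak in the combined list, its signal had a median of 48.9 (range 13.1 to 109.6), against 36.6 at all such genes. The authors cut the list by the irreproducible discovery rate (IDR), which scores whether a peak keeps its rank in repeat calls and must be at most 1%, or at least 2 on its −log10 scale. Just inside were mRpL39 with a signal of 73.1 and −log10 IDR of 2.05 and mRpL21 with 71.7 and 2.07. Just outside were mRpL9 with 67.4 and 1.97, mRpS16 with 78.1 and 1.95, mRpS31 with 86.4 and 1.94, mRpL11 with 81.6 and 1.92, and mRpS21 with 73.2 and 1.92. The signal values of the members on either side of the threshold therefore overlap. The tunnel-exit gene mRpL47 had a candidate of 109.6 with −log10 IDR of 3.09, but no thresholded list holds it. It is 1 of 168 candidates past that level that the combined thresholded list leaves out, 111 of them on arm 3R, and no source used here gives the reason.

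**Figure D2:**
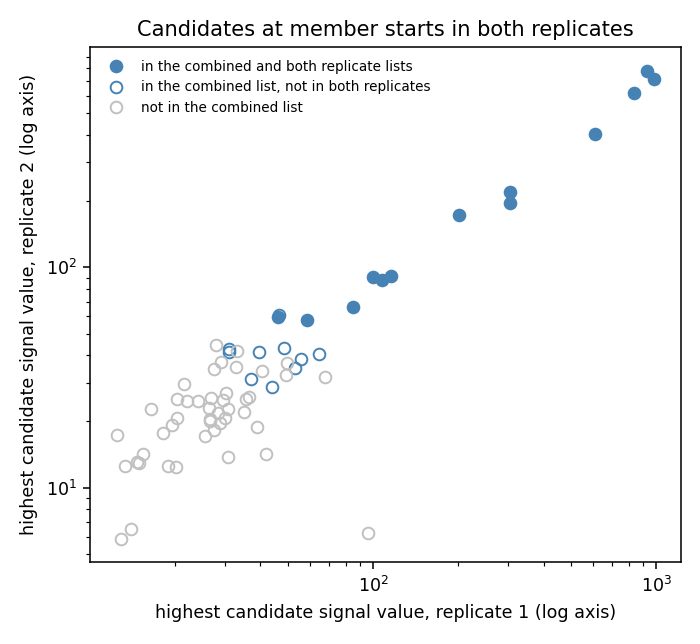
Highest candidate within 500 bp of a start in replicate 1 (x, log axis) and replicate 2 (y, log axis) for the 68 members with a candidate in both, which need not be the same site. Filled circles are the 13 members in the combined and both replicate lists, open blue circles the other members of the combined list and grey circles members outside it. The 13 follow a narrow line over more than 1 order of magnitude, whereas the rest form a cloud at low values, with mRpL33 alone at the lower right.

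The replicates ranked the members' peaks alike. Over the 13 members in all lists the signal values of replicates 1 and 2 had a Pearson correlation of 0.990 on the log2 scale and a Spearman correlation of 0.984, and their ratio had a median of 1.27 (range 0.781 to 1.54). Over the 1867 genes with a peak in both replicates these were 0.916 and 0.902. For candidates below 200 in the combined list the correlation over 60 members was 0.635 (Pearson, log2) and 0.680 (Spearman), against 0.700 and 0.722 over 7902 genes. These pair the highest candidate of each replicate, which can be at different sites, as at mRpL17 (-482 and 148 bp from the start). These points share 2 libraries, and the values describe them only.

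Most members share their start region with another gene. A divergent neighbour, a protein-coding gene on the other strand with a start at most 500 bp away, was annotated for 53 of 73 members (72.6%), against 27.8% of all protein-coding genes, and all of the 53 are transcribed away from the neighbour. Over all genes this definition can also take in pairs that overlap at their starts, and these were not counted apart. Among genes with such a neighbour, 19 of 53 members had a peak (35.8%, interval 23.1 to 50.2%), against 39.5% of all such genes. Among genes without, 4 of 20 members had a peak (20.0%, interval 5.73 to 43.7%), against 18.4%. Within each layout the members' share was thus near the background, and the 4 without a neighbour were mRpL41, mRpL19, mRpL4 and mRpL10. Whether the layout accounts for the share over all members was not tested.

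**Figure D3:**
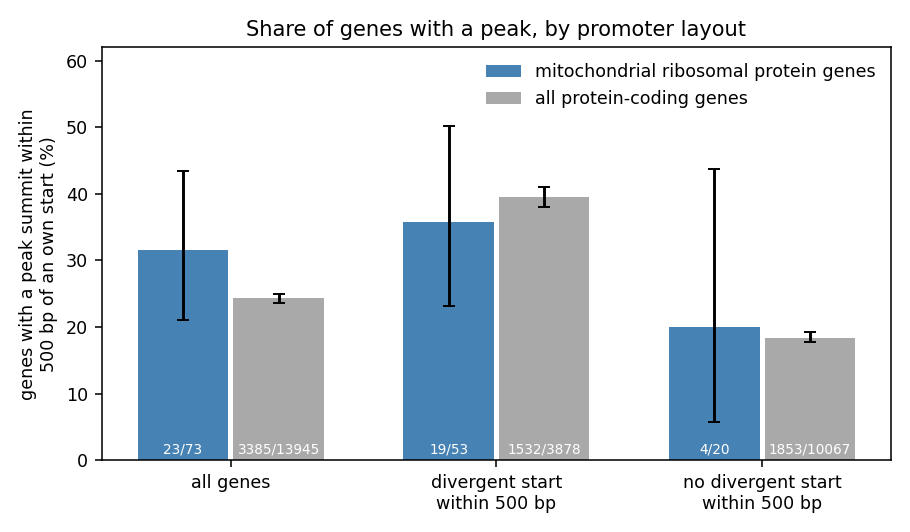
Percent of genes with a peak summit within 500 bp of an own start in the combined list, for all genes, genes with a divergent start within 500 bp and genes without. Blue bars are mitochondrial ribosomal protein genes, grey bars all protein-coding genes, whiskers exact 95% binomial intervals, and the numbers in the bars are genes with a peak over genes counted. Members stand at 31.5%, 35.8% and 20.0%, beside 24.3%, 39.5% and 18.4%.

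At all 19 members with both a peak and a neighbour, the same peak lay within 500 bp of the neighbour's start as well. The summit lay between the starts in 15 of them, inside the neighbour in 2 (Taz beside mRpL18, and CG30183 beside mRpL43) and inside the member in 2 (mRpL23 and mRpS11). It was nearer to the neighbour in 12 and nearer to the member in 7. A peak in such a gap cannot be given to either gene from its position. When each summit was given to its nearest start only, 11 members were left (15.1%), against 19.2% of all genes, so the order of members and background turned. Over all member peaks the median position was -144 bp from the nearest own start (quartiles -191 and -115.5 bp), with 21 of 23 upstream (91.3%), against a median of -119 bp and 77.0% upstream over all genes with a peak.

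**Figure D4:**
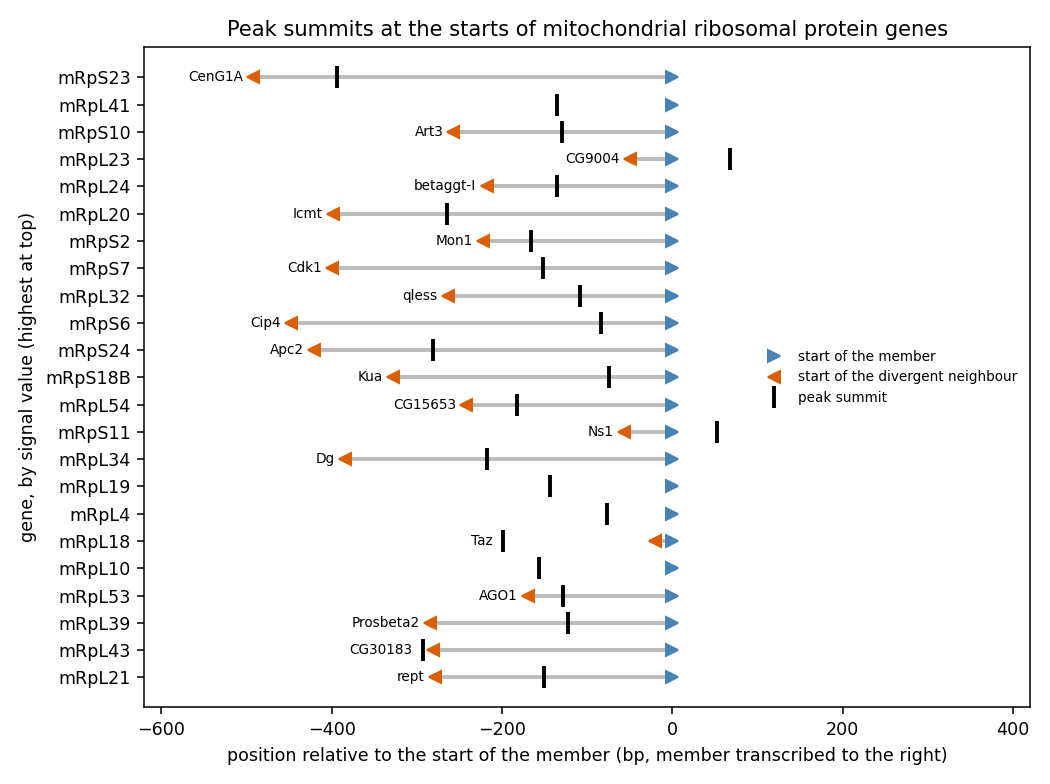
Position of the summit (black bar) relative to the nearest start of the member (blue, at 0) and, where one is annotated, the start of the divergent neighbour (orange, named), in bp with the member transcribed to the right, ordered by signal. In 15 of the 19 shared regions the summit stands between the starts, and at mRpL23 and mRpS11 it stands to the right of 0.

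The neighbours of members with a peak have many functions. Beside CenG1A and Art3 they include Cdk1, the mitotic kinase (at mRpS7), rept, a chromatin remodelling ATPase (at mRpL21), AGO1, the Argonaute of the microRNA pathway (at mRpL53), Dg, the matrix receptor Dystroglycan (at mRpL34), Prosbeta2, a proteasome subunit (at mRpL39), and Apc2, a regulator of Wnt signalling (at mRpS24). Among these neighbours, a mitochondrial function is known for qless, which takes part in ubiquinone synthesis (at mRpL32), and for Taz, which remodels cardiolipin (at mRpL18). The functions of neighbours of members without a peak are not described here. At 4 members without a peak the neighbour had one that lay more than 500 bp from every start of the member. These were FoxK beside mRpL2, if beside mRpL22, norpA beside mRpL33 and Droj2 beside mRpS21. With a limit of 1000 bp, mRpL2, mRpL22 and mRpL33 counted as having a peak themselves, but mRpS21 did not. By distance between the starts, 3 of 20 members had a peak at 0 to 150 bp (15.0%, interval 3.21 to 37.9%, against 34.4% of all such genes), 9 of 13 at 151 to 300 bp (69.2%, interval 38.6 to 90.9%, against 44.1%) and 7 of 20 at 301 to 500 bp (35.0%, interval 15.4 to 59.2%, against 39.8%). These classes were set after the values were seen.

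Counts by place in the ribosome were small. Of the stalk and its base, where translation factors bind, 1 of 3 genes had one (mRpL10). The peptidyl transferase centre and core had 1 of 7 (mRpL4), and the central protuberance 1 of 8 (mRpL18), none of them in all 3 lists. Of the small-subunit genes with bacterial relatives 7 of 16 had a peak, and of those for proteins of mitochondria 1 of 10, mRpS23. These groups, and that of the tunnel exit, hold too few genes to set apart from 24.3%, the share over all genes. Of the 15 large-subunit genes with a peak, the others belong to none of these groups. On X, 0 of 11 members had a peak in the combined list, which allows a share of up to 28.5%, against 21.4% of all genes on X; 7 of 12 on 2L did (58.3%, interval 27.7 to 84.8%), against 23.3% there.

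Many promoters of the members also held a sequence that the choice of members did not use, although the motifs were chosen with earlier results of these data known. The E-box CAGCTG, a palindrome known from housekeeping core promoters of flies, was present between 250 bp before and 50 bp after the first start in 40 of 73 members (54.8%, interval 42.7 to 66.5%), against 17.7% of all protein-coding genes. It was as common in members with a divergent neighbour (54.7%, against 25.0% of all such genes) as in those without (55.0%, against 14.9%). Of 45 matches 36 lay within 50 bp of the start (80.0%, against 49.9% of the matches at all genes), and 35 members had such a match (47.9%, against 9.34%). An E-box lay near both starts in 11 of 53 divergent pairs (20.8%, against 5.72%). Among genes of the respiratory chain 24.2% of promoters held the E-box, and among genes of cytosolic ribosomal proteins 9.68%. Among 39 other genes for mitochondrial translation and gene expression the share was 48.7%, so the E-box was not particular to the members.

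The intervals between the starts of mRpS2 and Mon1, at chr2L:4850420-4850668 (minus strand), and of mRpL32 and qless, at chr3R:31252608-31252871 (plus strand), show the arrangement. Both are written from 5′ to 3′ on the strand of the mitochondrial ribosomal protein gene, so that each ends at the base before its start, with the E-box in capitals; the first also takes in the first bases of Mon1, which helps to activate a Rab GTPase on late endosomes.
mRpS2: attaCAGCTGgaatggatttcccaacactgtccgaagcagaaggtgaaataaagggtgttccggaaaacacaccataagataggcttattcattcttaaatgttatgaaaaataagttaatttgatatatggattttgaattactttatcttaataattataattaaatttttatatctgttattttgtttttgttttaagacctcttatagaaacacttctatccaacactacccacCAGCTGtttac
mRpL32: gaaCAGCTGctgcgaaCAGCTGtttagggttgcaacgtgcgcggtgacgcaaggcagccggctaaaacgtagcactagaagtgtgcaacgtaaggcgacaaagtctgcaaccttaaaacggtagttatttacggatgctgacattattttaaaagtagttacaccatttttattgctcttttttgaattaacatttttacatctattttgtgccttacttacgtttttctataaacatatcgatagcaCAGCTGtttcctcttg
In both, E-boxes flank the interval at either end, while the summit falls 166 bp and 108 bp before the start of the member. At mRpL32 the summit window had a GC content of 26.7%, against 38.9% for its promoter. At mRpS2 the 2 were alike, with 30.7% and 31.9%. The E-box nearest to mRpS2 begins 11 bp before its start and that nearest to mRpL32 begins 16 bp before its start.

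With a peak, 14 of 23 members held the E-box in the promoter (60.9%), and without, 26 of 50 (52.0%). It occurred in 0 of 23 windows of 50 bp either side of a member summit, which allows a share of up to 14.8%, against 5.02% of all promoter summits. In the 14 members with both, the summit was a median of 114 bp from the nearest E-box (range 56 to 323 bp). The DREF element TATCGATA, bound by a regulator of growth and replication genes, was in 20.5% of member promoters against 9.37% of all. By layout the order differed, with 15.1% of members with a divergent neighbour (against 17.2% of all such genes) and 7 of 20 members without (35.0%, against 6.34%). It was in 8 of 23 member promoters with a peak (34.8%, interval 16.4 to 57.3%) and in 7 of 50 without (14.0%, interval 5.82 to 26.7%), against 13.4% and 8.08% of all genes with and without a peak. Ohler motif 1 (core GGTCACACT), another housekeeping promoter motif, was in 0 of 23 member promoters with a peak (which allows up to 14.8%) and in 8 of 50 without, against 8.98% and 5.10% of all genes with and without a peak. The Huckebein core CACGCCC was in 1 of 73 member promoters (1.37%, against 1.56%) and in 0 of 23 summit windows, against 0.794% of all promoter summits. The GC box CCGCCC of Sp/KLF proteins was in 0 of 23 summit windows as well (against 2.70%), but with 100 bp either side it was in 2 of 23 (8.70%, against 5.08%). Matches were counted on both strands and may overlap, as CGATA, the BEAF-type motif, does with TATCGATA, and a match shows no binding.

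**Figure D5:**
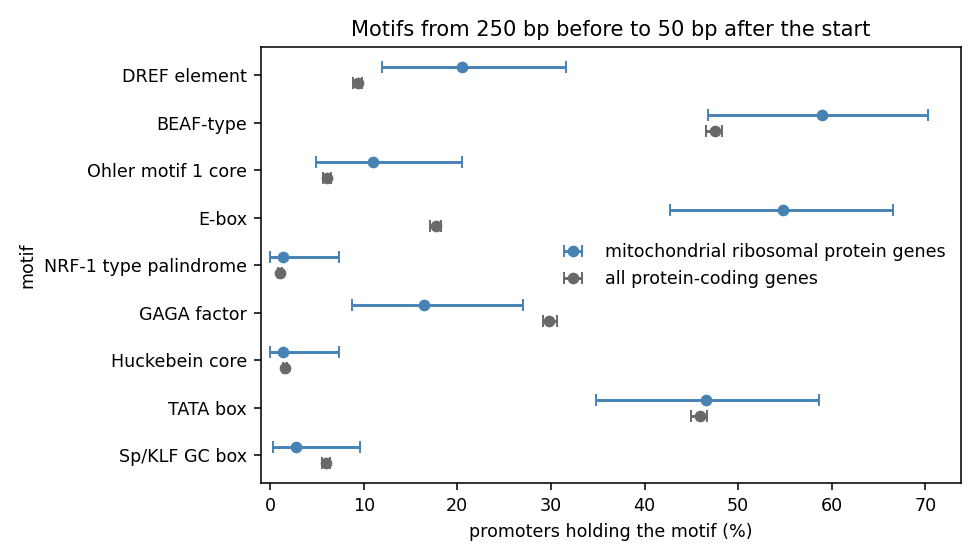
Percent of promoters (250 bp before to 50 bp after the first start) that hold each of 9 motifs, for 73 mitochondrial ribosomal protein genes (blue) and all 13945 protein-coding genes (grey), with exact 95% binomial intervals. The E-box stands at 54.8% against 17.7%, the DREF element at 20.5% against 9.37%, and the GAGA motif at 16.4% against 29.8%.

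Of 39 other genes for mitochondrial translation and gene expression, 12 had a peak in the combined list (30.8%, interval 17.0 to 47.6%, against 24.3% of all genes). In all 3 lists were 3 of them (7.69%, against 13.2%). These were PNPase, which encodes the polynucleotide phosphorylase of RNA decay (1979.6, with 1136 for replicate 1 and 849 for replicate 2), mtSSB, which coats single-stranded mitochondrial DNA (218, 130.4 and 89.4), and mTerf5, of the transcription termination factor family (142, 81.2 and 61.0). The elongation factor genes mEFTu1, mEFTu2 and mEFTs had peaks of 75.5, 88.9 and 75.3 in the combined list. The ribosomal protein genes tko and bonsai, which belong to the small subunit but not to the members by name, had none. The E-box was in 48.7% of the promoters of these 39 genes, against 17.7% of all protein-coding genes. Genes of the nuclear-encoded respiratory chain had a peak in 21 of 91 (23.1%, against 24.3% of all genes) and a divergent neighbour in 45.1% (against 27.8%). Genes of cytosolic ribosomal proteins had a peak in 72 of 93 (77.4%, against the same 24.3%), with a median position of -16 bp and a signal of at most 530.1. The members thus had fewer peaks than the cytosolic set, farther from the start, with 4 that exceeded its strongest by more than 1.5 times; the differences were not tested.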

How the data were processed

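ChIP-seq peak lists of 2 biological replicates of 1 group were used, on dm6, with chromatin sonicated to 200 to 800 bp, per the labels. No source used here gives the aligner, the peak caller or their settings. A possible control named in the labels was not analysed here. The authors deposited a signal value for each peak and, in the ranked lists, the −log10 of its IDR, on scales that belong to each list. The combined list was matched to its ranked list by coordinates. No sample was left out of the lists.

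Genes and starts came from Ensembl release 115 (18164 genes on 6 arms after transposable elements were removed), and sequence from the RefSeq Release 6 genome. Summits were assigned to every own start within 500 bp, in Python 3.11.15 with numpy 2.4.6; exact Clopper-Pearson intervals came from scipy 1.17.1 and figures from matplotlib 3.10.9. The assignment was tested on simulated peaks. Positions count from 1. Of the list of other mitochondrial genes, 4 symbols found no match and were left out. Values are given in full for the members in all 3 lists, those in fewer lists, and the strongest without a peak. Members, lists and motifs were chosen with earlier results of these data known, and the level of 200, the classes of distance and the E-box positions after the values were seen. No test was possible with 1 group. Alternatives were other distances, lists, assignments, pair limits and motif windows, and each replicate alone.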

Additional observations from a re-analysis of the deposited data

How the results depend on the processing

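The count of 23 members with a peak moved by more than 1.5 times when only the 50% of peaks with the higher signal were kept (14 members, with 14.3% of all genes) and when each summit was given to its nearest start (11 members). With 1 replicate left out it was 16 to 17 members (16.4 to 18.7% of all genes), and the median position ran from -147 to -135 bp. Distance limits of 250 and 1000 bp gave 19 members (26.0%, against 19.8% of all genes) and 27 members (37.0%, against 28.4%). The conservative list gave 25 (34.2%, against 23.9%), and any base of the peak in place of the summit 26 (35.6%, against 25.9%). With only the most upstream start of each gene, the count stayed at 23 members (31.5%, against 21.6% of all genes). The 13 members in all lists stayed 13 when peaks were matched by overlap or by summits within 100 bp. Divergent starts at most 250 bp apart were found for 25 members in place of 53, and at most 1000 bp apart for 58. Motif shares at member summits depended on the window: BEAF-type 4.35%, then 43.5% with 100 bp either side and 60.9% in the promoter; E-box 0%, 17.4% and 60.9%; DREF element 0%, 13.0% and 34.8%; TATA box 21.7%, 39.1% and 47.8%; GC box 0%, 8.70% and 4.35%. These windows differ in length and place. Over all promoter summits the shares rose as well with 100 bp either side. BEAF-type went from 15.9% to 31.9%, E-box from 5.02% to 12.1% and DREF element from 1.71% to 4.79%. TATA box went from 19.2% to 31.2% and GC box from 2.70% to 5.08%. In the promoters of all genes with a peak the shares were 52.4%, 23.0%, 13.4%, 43.8% and 6.38% in the same order. No paired analysis was possible because there is 1 group. The depth of the libraries is unknown, so an absent peak may be a peak below detection.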
